A study of Mus musculus with 8 samples.

Results

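The genes described here are 8 factors and effectors of the epithelial-mesenchymal transition, Snai1, Snai2, Zeb1, Zeb2, Twist1, Twist2, Vim and Fn1, taken by gene name. Each is read by 1 probe, so 8 of the 23473 gene probes of the array are members, and all 8 are among the 21661 probes bright enough to be tested. The platform's annotation lists Zeb1 and Zeb2 under their older names, Zfhx1a and Zfhx1b. RNA came from embryoid bodies, floating aggregates of differentiating cells, made from the mouse embryonic stem cell line iTbx6 T-GFP. Tbx6 encodes a T-box factor that paraxial mesoderm needs, and T (Brachyury) is its relative in the streak. The 4 groups, with 2 single-colour arrays each, are DoxOn_day2, DoxOFF_day2, DoxOn_day4 and DoxOFF_day4: embryoid bodies with and without doxycycline (Dox), the inducer, at day 2 and at day 4 of differentiation. All 4 groups share the same line, the same modified serum-free medium and the absence of added growth factors, and the day-4 groups had also been dissociated at day 2 and reaggregated. The labels give neither the day on which Dox was added nor whether the 2 arrays of a group are separate cultures, so p-values here reflect only how far these arrays scatter, and that scatter may be technical. No transgene-free cells were given Dox, and an effect of Dox itself and an effect of Tbx6 induction cannot be told apart.

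The epithelial-mesenchymal transition is the change by which cells of a sheet loosen their junctions, take on a motile shape and leave, and in the mouse embryo it first forms mesoderm at the primitive streak and later releases the neural crest from the neural tube. Snail (Snai1, Snai2) and Zeb (Zeb1, Zeb2) proteins are zinc-finger repressors that bind E-box sequences in the promoters of junction genes such as Cdh1, which encodes E-cadherin. Twist proteins are basic helix-loop-helix factors of mesoderm and mesenchyme, Vim encodes the intermediate filament protein vimentin, and Fn1 encodes fibronectin, the matrix protein on which mesoderm cells migrate.

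The promoters of 3 members are shown because Snail and Zeb proteins bind the E-box CAGGTG, whose other strand reads CACCTG. Among the 5 members scanned, only the window of Snai1 holds it. A RefSeq table (GRCm38.p6) of windows from 250 bases before to 50 bases after each start site held 5 of the 8 members. These were Snai1, Zeb2, Twist1, Twist2 and Vim. Each window is written 5′ to 3′ on the strand of the gene, and capitals mark the E-box. Snai1 lies at chr2:167537945-167538244 on the plus strand, the outermost of the 4 start sites of Zeb2 at chr2:45117393-45117692 on the minus strand, and Vim at chr2:13574061-13574360 on the plus strand.
Snai1: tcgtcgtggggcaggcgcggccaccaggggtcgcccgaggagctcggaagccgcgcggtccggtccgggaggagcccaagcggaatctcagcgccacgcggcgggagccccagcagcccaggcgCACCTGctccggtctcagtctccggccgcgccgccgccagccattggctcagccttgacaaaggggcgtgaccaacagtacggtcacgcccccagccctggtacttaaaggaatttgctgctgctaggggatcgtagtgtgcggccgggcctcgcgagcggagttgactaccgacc
Zeb2: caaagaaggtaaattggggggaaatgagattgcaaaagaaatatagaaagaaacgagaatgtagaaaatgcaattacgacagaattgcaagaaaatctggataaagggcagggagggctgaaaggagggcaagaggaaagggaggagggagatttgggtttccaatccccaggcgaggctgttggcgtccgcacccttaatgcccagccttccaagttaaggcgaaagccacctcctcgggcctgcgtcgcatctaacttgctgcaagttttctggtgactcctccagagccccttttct
Vim: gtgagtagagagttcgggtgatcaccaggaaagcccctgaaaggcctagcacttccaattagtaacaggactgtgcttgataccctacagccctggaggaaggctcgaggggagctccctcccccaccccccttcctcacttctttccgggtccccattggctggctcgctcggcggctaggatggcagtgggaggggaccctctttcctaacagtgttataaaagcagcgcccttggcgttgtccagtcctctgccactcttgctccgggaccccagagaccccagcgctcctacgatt
The Snai1 window holds 1 CACCTG, at bases -126 to -121 when the start site is base 0. No such box was found in the windows of Twist1, Twist2, Vim or any of the 4 starts of Zeb2, while 20.2% of the 32851 promoter windows in the table hold one on either strand. The T-box motif AGGTGTGA (other strand TCACACCT) was in none of the members' windows and in 1.28% of all windows. The general E-box CANNTG, of which CAGGTG is 1 form, was present in 72.3% of all windows and, among the members, in that of Snai1 alone.

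Before blank subtraction the median gene spot of the 8 arrays lay between 71.5 and 82.6 intensity units, and the mean of the blank spots between 52.3 and 60.9. Arrays of a group correlated at 0.993 or more over the probes tested, and arrays of different groups at 0.985 or less. With 2 arrays per group, precision is limited by their number. The place of the Tbx6 probe along the transcript is unknown. It had log2 intensities of 5.21 and 5.48 on the DoxOn_day2 arrays, against 5.59 and 5.49 on the DoxOFF_day2 arrays. At day 4 it had 6.10 and 6.23 with Dox, against 5.50 and 5.58 without. It was higher with Dox at day 4 by 0.62 ± 0.12 (limma adjusted p = 0.00915), a call that ended without DoxOn_day4 replicate 2 or DoxOFF_day4 replicate 1 (up to 0.0520), and did not pass at day 2 (-0.20 ± 0.12, adjusted p = 0.395). Directions are those of the arrays as labelled. All levels below are log2 intensities after blank subtraction and quantile normalization, and all changes are differences of these. A call is a Benjamini-Hochberg adjusted p under 0.05, taken over all 21661 probes.

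**Figure D1:**
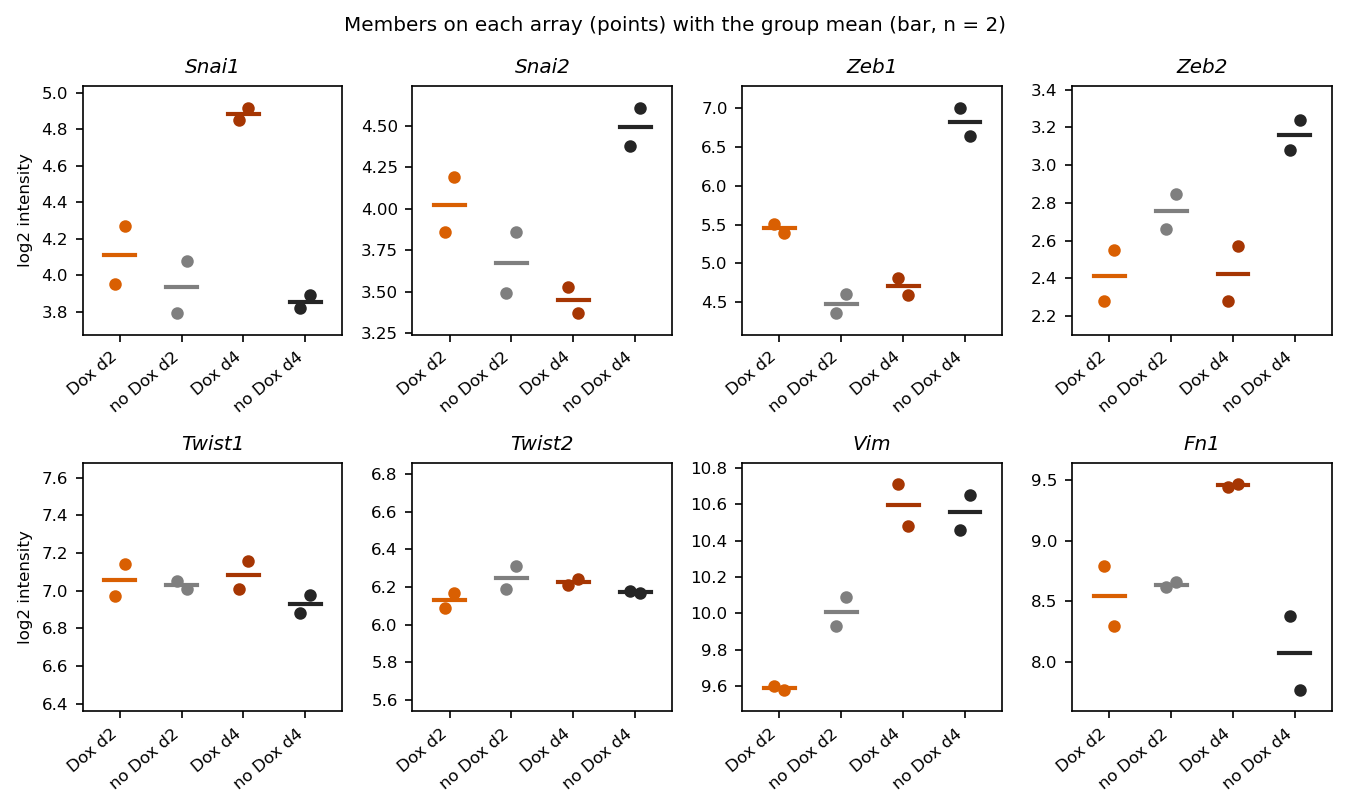
Log2 intensity (y axis) of the 8 members on each of the 8 arrays (points), with the mean of the 2 arrays of a group as a bar, for Dox and no Dox at day 2 (d2) and day 4 (d4). Snai1 and Fn1 are highest on the day-4 arrays with Dox, Snai2, Zeb1 and Zeb2 on those without, and the Twist1 and Twist2 points lie between 6.88 and 7.16 and between 6.09 and 6.31; the y axes differ between panels.

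The Snail repressors moved in opposite directions with Dox at day 4. Snai1, the Snail factor of the mouse primitive streak, had 4.85 and 4.92 with Dox at day 4, against 3.82 and 3.89 without Dox. At day 2 it had 3.95 and 4.27 with Dox, against 3.79 and 4.08 without. The day-4 arrays with Dox were the highest of the 8, and the day-2 groups overlapped each other. Snai1 rose with Dox at day 4 by 1.03 ± 0.15 (SE, n = 2 arrays per group; 2.05-fold; limma adjusted p = 0.00222), whereas at day 2 the change was 0.18 ± 0.15 (adjusted p = 0.536). In bulk samples of this kind, fewer cells of a type and less RNA per cell cannot be told apart.

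Snai2, which encodes Slug, the Snail factor associated with neural crest and later mesenchyme, ran the other way. It had 3.53 and 3.37 with Dox at day 4, against 4.38 and 4.61 without Dox, and the groups did not overlap. Its values at day 2 were 3.86 and 4.19 with Dox, against 3.49 and 3.86 without, so that 1 array of each group shared the level 3.86. Snai2 fell 2.06-fold with Dox at day 4 (log2 change -1.05 ± 0.18, limma adjusted p = 0.00476) and had a change of 0.35 ± 0.18 at day 2 (adjusted p = 0.288). From high to low, its group means were 4.49 ± 0.16 for DoxOFF_day4, 4.02 ± 0.24 for DoxOn_day2, 3.68 ± 0.26 for DoxOFF_day2 and 3.45 ± 0.11 for DoxOn_day4 (SD, n = 2), and no array of the first group reached down to the second.

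Zeb1, a zinc-finger homeodomain repressor, was the member with the largest Dox changes at both days and the only one to pass at both. With Dox at day 2 it had 5.51 and 5.39, against 4.36 and 4.61 without. At day 4 it had 4.81 and 4.60 with Dox, against 7.0 and 6.63 without. The Dox arrays were thus the higher at day 2 and the lower at day 4, with no overlap at either. Zeb1 rose 1.95-fold with Dox at day 2 (log2 change 0.97 ± 0.16, limma adjusted p = 0.0119) and fell 4.32-fold at day 4 (-2.11 ± 0.16, adjusted p = 1.3e-04). The day-2 change was larger in size than that of 95.7% of the probes tested, and the day-4 change larger than that of 96.8%. The day-2 call ended without DoxOn_day2 replicate 1 (adjusted p = 0.0752), DoxOn_day2 replicate 2 (0.0539) or DoxOFF_day2 replicate 1 (0.0701). The means ran from 6.82 ± 0.26 (DoxOFF_day4) through 5.45 ± 0.09 (DoxOn_day2) to 4.70 ± 0.15 (DoxOn_day4) and 4.49 ± 0.18 (DoxOFF_day2), and arrays of the last 2 groups overlapped.

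Zeb2, the second Zeb repressor and a factor of neural and neural crest cells, was close to background. Its spots read 57.3 to 68.6 intensity units before subtraction, and on DoxOFF_day2 replicate 1 and DoxOn_day4 replicate 1 it was above the blank spots but not above the negative control spots (mean plus 2 SD). It had 2.28 and 2.57 with Dox at day 4, against 3.08 and 3.24 without, and 2.28 and 2.55 with Dox at day 2, against 2.66 and 2.85 without. At both days the Dox arrays were the lower. Zeb2 fell 1.67-fold with Dox at day 4 (log2 change -0.74 ± 0.15, limma adjusted p = 0.0116), and its day-2 change was -0.34 ± 0.15 (adjusted p = 0.237). The day-4 call ended without DoxOn_day4 replicate 1 (adjusted p = 0.0668) or DoxOFF_day4 replicate 2 (0.0693), and with a floor 4 times as high (log2 change -0.12, adjusted p = 0.198).

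The Twist genes showed no call in any comparison. Twist1, which in the mouse embryo marks cranial mesenchyme and other mesoderm derivatives, had 6.97 and 7.14 with Dox at day 2, against 7.05 and 7.01 without, and 7.01 and 7.16 with Dox at day 4, against 6.88 and 6.98 without. Twist2, a close relative of dermal and other mesenchyme, had 6.09 and 6.17 with Dox at day 2, against 6.19 and 6.31 without, and 6.21 and 6.24 with Dox at day 4, against 6.18 and 6.17 without. The 95% intervals of the Dox change ran from -0.24 to 0.28 (day 2) and -0.11 to 0.42 (day 4) for Twist1, and from -0.34 to 0.10 and -0.18 to 0.27 for Twist2. Over time the intervals also included 0, with the adjusted p between 0.527 and 0.895 for both genes with and without Dox.

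Vim, the filament gene most used as a mark of mesenchyme, was bright on every array. It had 9.60 and 9.58 with Dox at day 2, against 9.93 and 10.09 without, and 10.71 and 10.48 with Dox at day 4, against 10.46 and 10.65 without. The Dox arrays lay below the others at day 2, and at day 4 the groups overlapped. Neither Dox change passed: it was -0.42 ± 0.13 at day 2 (limma adjusted p = 0.0831) and 0.04 ± 0.13 at day 4 (adjusted p = 0.868, 95% interval -0.26 to 0.34). The day-2 change passed with no background correction (-0.40, adjusted p = 0.0390) and with normexp against the blank mean (-0.40, adjusted p = 0.0372).

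Fn1 was highest on the day-4 arrays with Dox, at 9.45 and 9.47, against 8.38 and 7.77 without Dox. At day 2 it had 8.79 and 8.30 with Dox, against 8.62 and 8.66 without, so that the Dox arrays enclosed the others. Fn1 rose 2.61-fold with Dox at day 4 (log2 change 1.38 ± 0.23, limma adjusted p = 0.00446), and the day-2 change was -0.09 ± 0.23 (adjusted p = 0.872).

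Over the members, 1 of 8 (12.5%) was called for Dox at day 2, higher, where 11.8% of all probes tested were called (5.55% higher and 6.25% lower). At day 4, 5 of 8 were called, 2 higher and 3 lower, where 29.9% of all probes were called (14.4% higher and 15.5% lower). The median size of the members' log2 change was 0.26 at day 2 and 0.89 at day 4, and that of all probes 0.19 and 0.28. The sizes of the changes of members near background depended on the background subtraction: with no correction the day-4 changes were 0.28 for Snai1, -0.23 for Snai2, -1.04 for Zeb1, -0.08 for Zeb2 and 1.22 for Fn1, and the day-2 change of Zeb1 was 0.35. Of these the call of Zeb2 ended (adjusted p = 0.0529), as it did with normexp against the blank mean (-0.09, adjusted p = 0.0520). With normexp run on the local background, a column that tracks the brightness of the spot itself, none of the members was called in any of the 5 comparisons (0 at an unadjusted p under 0.05), and limma called between 0 and 3 probes in each.

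**Figure D2:**
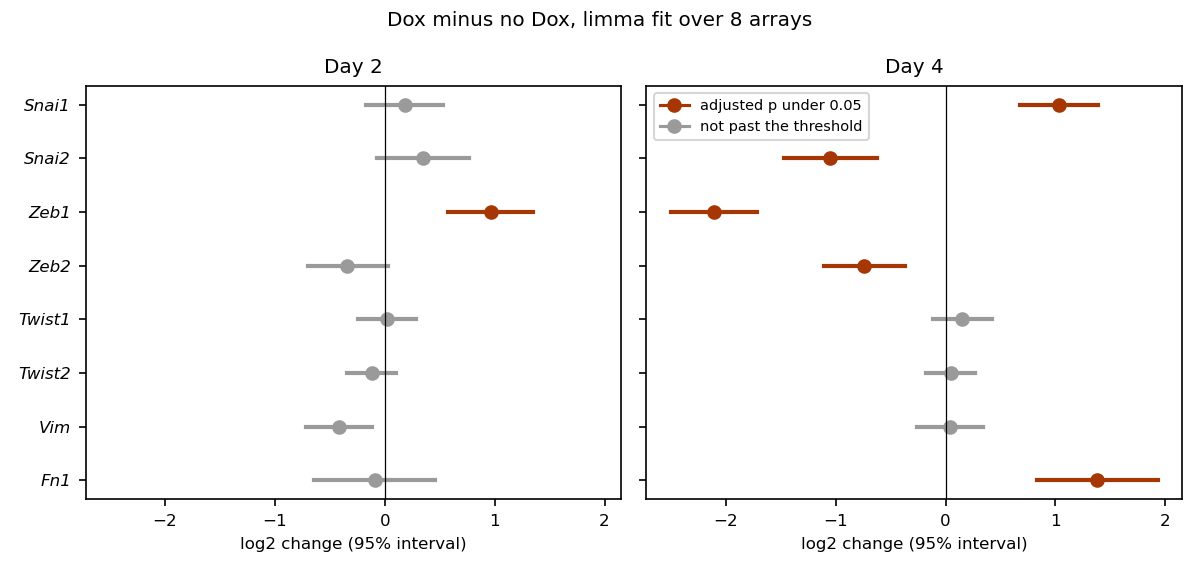
Log2 change with Dox (x axis, Dox minus no Dox; points) with its 95% interval (lines) for each member at day 2 (left) and day 4 (right), from the limma fit over 8 arrays, dark where the adjusted p was under 0.05. Zeb1 lies at 0.97 on the left and at -2.11 on the right, Snai1 and Fn1 lie to the right of 0 at day 4, and Snai2 and Zeb2 to the left.

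The difference between the Dox response at day 4 and that at day 2 was tested as an interaction term of the same fit. It passed for 4 of 8 members, where 22.1% of all probes passed. Zeb1 had the largest difference, at -3.08 ± 0.23 (limma adjusted p = 2.0e-04), followed by Fn1 at 1.47 ± 0.33 (0.0197), Snai2 at -1.39 ± 0.25 (0.00853) and Snai1 at 0.86 ± 0.21 (0.0277). For Vim (0.46 ± 0.18, adjusted p = 0.119) and Zeb2 (-0.40 ± 0.22, adjusted p = 0.252) the difference did not pass, so a call at 1 day only does not separate the days for Zeb2. For Snai1 the call of the difference ended without any 1 of 6 arrays, which were DoxOn_day2 replicate 1, DoxOFF_day2 replicate 2 and the 4 day-4 arrays (adjusted p 0.0667 to 0.0821). For Fn1 it ended without DoxOn_day2 replicate 2, either DoxOFF_day2 array or either DoxOn_day4 array (adjusted p 0.0547 to 0.0625). With no background correction the differences were 0.24 for Snai1, -0.30 for Snai2, -1.39 for Zeb1 and 1.29 for Fn1, all still called. With a floor 4 times as high the calls of Snai1 and Fn1 ended, at adjusted p values of 0.0526 for Snai1 and 0.0585 for Fn1.

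Between the days, Vim rose both with and without Dox, while Zeb1 fell with Dox and rose without. The day-4 groups had also been dissociated at day 2 and reaggregated. In every comparison of the days, an effect of time and an effect of that step thus cannot be told apart. The Dox and time comparisons share arrays, so their values are set side by side and not against each other. With Dox, Vim rose 2.01-fold (log2 change 1.01 ± 0.13, limma adjusted p = 0.00206), with means of 10.60 ± 0.16 at day 4 and 9.59 ± 0.01 at day 2 (SD, n = 2). Fn1 was higher by 0.91 ± 0.23 (adjusted p = 0.0363) and Snai1 by 0.78 ± 0.15 (adjusted p = 0.0120). Zeb1 fell by 0.75 on the log2 scale (SE 0.16, adjusted p = 0.0207). For each of these 4 the day-4 arrays lay on 1 side of the day-2 arrays, as for 56.6% of all probes. Snai2 was lower on both day-4 arrays than on either day-2 array, but its change of -0.57 ± 0.18 did not pass (adjusted p = 0.0683). The calls with Dox numbered 4 of 8, 3 higher and 1 lower, where 19.0% of all probes were called (9.63% higher).

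Without Dox, Zeb1 rose 5.03-fold between the days (log2 change 2.33 ± 0.16, limma adjusted p = 6.1e-05), with means of 6.82 ± 0.26 at day 4 and 4.49 ± 0.18 at day 2. Snai2 rose by 0.82 ± 0.18 (adjusted p = 0.0103) and Vim by 0.55 ± 0.13 (adjusted p = 0.0131). Fn1 changed by -0.56 ± 0.23 (adjusted p = 0.102), Zeb2 by 0.41 ± 0.15 (0.0797) and Snai1 by -0.08 ± 0.15 (0.723), none of which passed. The calls without Dox numbered 3 of 8, all higher, where 38.1% of all probes were called (20.2% higher).

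The time changes of members near background were smaller with no background correction, at 0.22 for Snai1 and -0.28 for Zeb1 with Dox, and 0.19 for Snai2 and 1.11 for Zeb1 without, and the call of Zeb1 with Dox ended there (adjusted p = 0.0533). Several of the time calls rested on single arrays. With Dox, that of Fn1 ended without DoxOn_day2 replicate 2, either DoxOFF_day2 array or either DoxOn_day4 array (adjusted p 0.0597 to 0.173) and with the authors' deposited values (0.0557). That of Zeb1 ended without any 1 of the 4 arrays with Dox (0.0527 to 0.110), and that of Snai1 without DoxOn_day2 replicate 1 (0.0645) or either DoxOn_day4 array (0.0525 and 0.0675). The call of Vim with Dox was kept without each of the 8 arrays in turn (adjusted p up to 0.0177). Without Dox, the calls of Snai2 and Vim ended without DoxOFF_day2 replicate 1 (0.0556 and 0.0734) or DoxOFF_day4 replicate 2 (0.0633 and 0.0718), and Fn1 passed without DoxOFF_day4 replicate 1 (-0.87, adjusted p = 0.0305). Zeb1 without Dox was kept in all 8 of these fits (adjusted p up to 7.3e-04).

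**Figure D3:**
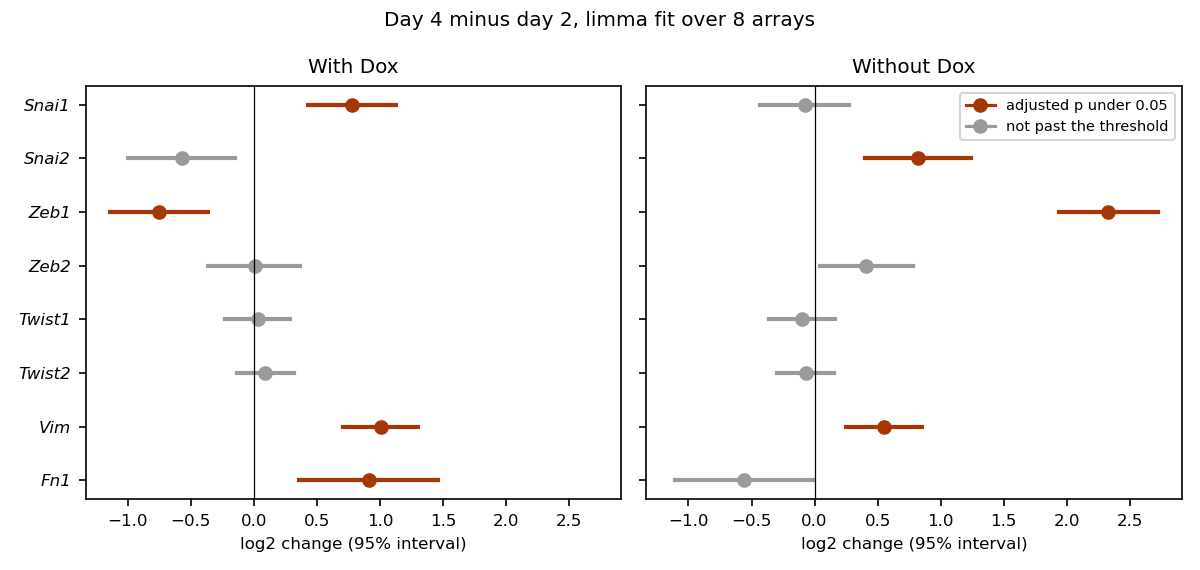
Log2 change between the days (x axis, day 4 minus day 2; points) with its 95% interval (lines) for each member with Dox (left) and without Dox (right), dark where the limma adjusted p was under 0.05. Vim lies to the right of 0 in both panels, Zeb1 at -0.75 with Dox and at 2.33 without.

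The junction genes that Snail and Zeb proteins are known to repress were read beside the members. Cdh1 had 10.07 and 10.21 with Dox at day 4, against 4.79 and 4.60 without, and 10.11 and 10.06 with Dox at day 2, against 10.80 and 10.54 without. The DoxOFF_day4 arrays, which had the highest Zeb1, Snai2 and Zeb2 levels, thus had the lowest Cdh1, while the DoxOn_day4 arrays, which had the highest Snai1, had Cdh1 close to the DoxOn_day2 arrays. The Cdh1 change with Dox was 5.45 ± 0.13 at day 4 (limma adjusted p = 1.0e-06) and -0.58 ± 0.13 at day 2 (adjusted p = 0.0314). The day-2 call was lost when either DoxOn_day2 array, DoxOFF_day2 replicate 1 or either of the DoxOn_day4 arrays was left out (adjusted p to 0.150).

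Cdh2, the gene of N-cadherin, which replaces E-cadherin in neural tissue and in mesenchyme, had 8.51 and 8.47 with Dox at day 4, against 11.07 and 11.07 without, and 6.67 and 6.76 with Dox at day 2, against 6.75 and 6.56 without. Its Dox change was -2.58 ± 0.10 at day 4 (limma adjusted p = 7.2e-06) and 0.06 ± 0.10 at day 2 (adjusted p = 0.801). Between the days Cdh2 rose by 1.78 ± 0.10 with Dox and by 4.41 ± 0.10 without (adjusted p = 1.1e-04 and 7.1e-07), while Cdh1 changed by 0.05 ± 0.13 with Dox (0.835) and by -5.98 ± 0.13 without (5.7e-07).

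**Figure D4:**
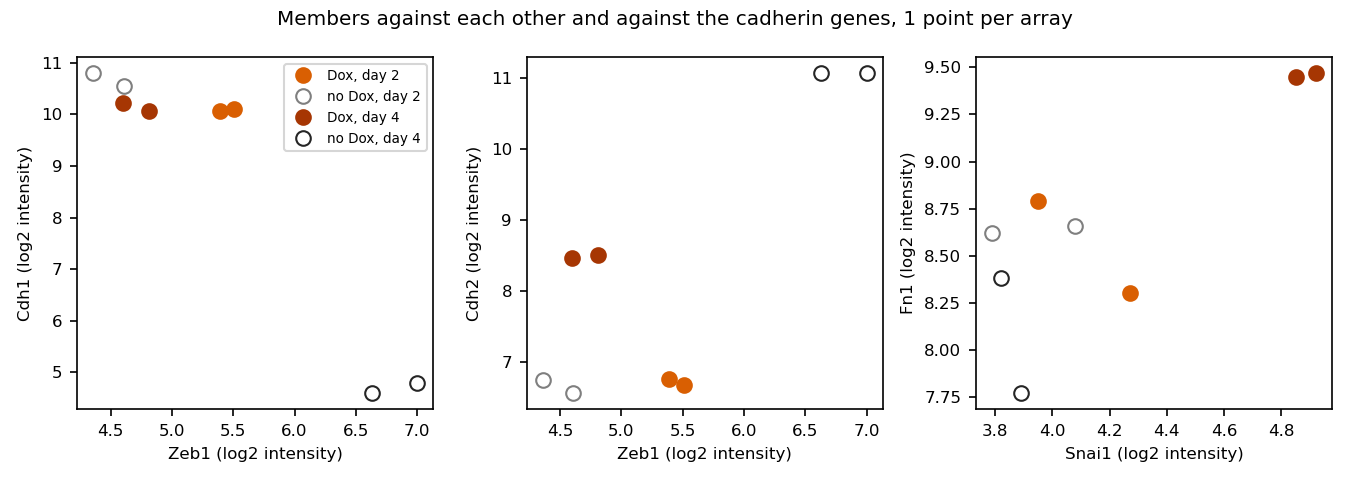
Log2 intensities of Cdh1 against Zeb1 (left), of Cdh2 against Zeb1 (middle) and of Fn1 against Snai1 (right), with 1 point per array, filled with Dox and open without. The 2 day-4 arrays without Dox stand apart with Zeb1 at 6.63 and 7.0, Cdh1 at 4.60 and 4.79 and Cdh2 at 11.07, and the 2 day-4 arrays with Dox stand apart with the highest Snai1 and Fn1.

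Of 30 listed epithelial genes, 25 were tested. Of all probes tested, 11.8% were called for Dox at day 2 and 29.9% for Dox at day 4. Between the days 19.0% were called with Dox and 38.1% without. The counts of this and the following lists, some of which have genes in common, are to be read beside these shares. With Dox at day 4, 18 were higher and 0 lower, with a median log2 change of 1.93 against -0.04 for all probes. The largest were Epcam, an adhesion gene (6.12 ± 0.10), and Esrp1, a splicing regulator of epithelial isoforms (6.04 ± 0.10). Without Dox, 0 rose and 16 fell between the days (median -1.30, against 0.04 for all probes), with Epcam at -6.51 ± 0.10. With Dox, 9 rose and 3 fell over time (4 to 10 rose and 1 to 3 fell with 1 array left out, the fewest rises without DoxOn_day4 replicate 2 and the fewest falls without DoxOn_day2 replicate 1), led by the desmosome gene Dsp (2.13 ± 0.10) and the claudin gene Cldn7 (1.71 ± 0.11). At day 2, 0 were higher and 7 lower with Dox, and 1 to 8 were lower when 1 array was left out, the fewest without DoxOn_day2 replicate 2. Crb3, a cell polarity gene, was the lowest there (-1.09 ± 0.12, limma adjusted p = 0.00245).

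Mesenchymal effector genes moved both ways. Of 24 tested, 6 rose and 7 fell with Dox at day 4 (median -0.16), and 3 rose and 3 fell at day 2 (median 0.01). Tagln, an actin-binding gene of smooth muscle and early mesoderm, was higher by 7.02 ± 0.26 and the calcium-binding protein gene S100a6 by 3.13 ± 0.11 with Dox at day 4. Loxl2, a lysyl oxidase-like enzyme gene, was lower, at -1.35 ± 0.14, beside Cdh2. Between the days 10 rose with Dox and 1 fell, and without Dox 10 rose and 3 fell. The largest rises were Tagln (5.47 ± 0.26) and the smooth muscle actin gene Acta2 (4.48 ± 0.16) with Dox, and Cdh11, a mesenchymal cadherin gene (4.78 ± 0.28, above background on 1 of the 2 DoxOFF_day2 arrays), and Cdh2 without.

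Among 15 tested genes for other transcription factors of such transitions, 4 rose and 1 fell with Dox at day 4 (1 to 2 fell with 1 array left out). Of all probes, 29.9% were called in that comparison (14.4% higher and 15.5% lower). Mesp1, a basic helix-loop-helix factor of nascent mesoderm, had a mean of 9.33 with Dox and, not above background there, of 1.14 without, so that it was at least 267-fold higher. Eomes, a T-box factor required in the mouse for the transition at the streak, was higher by 3.55 ± 0.11 (limma adjusted p = 2.5e-06). Tcf12, whose product pairs with Twist and other helix-loop-helix factors, was lower, at -2.31 ± 0.12 (adjusted p = 2.3e-05). At day 2 only Tcf3, another gene of such a partner, was called of the 15 (0.92 ± 0.22, adjusted p = 0.0448), and this call ended without any 1 of the 4 day-2 or the 2 DoxOFF_day4 arrays (up to 0.200).

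Partners and regulators of the Snail, Zeb and Twist proteins include their co-repressors, the kinases and ubiquitin ligases that act on Snail, and the Id proteins, which hold helix-loop-helix factors away from DNA. Of 22 tested, 4 rose and 1 fell with Dox at day 2 (0 fell without any 1 day-2 array), and 4 rose and 8 fell at day 4. With 1 array left out 2 to 4 rose at day 4, the fewest without DoxOn_day4 replicate 2, and 5 to 7 fell, the fewest without DoxOn_day4 replicate 1. The Id genes led the rises at both days and the falls at day 4. Id1 was higher by 3.78 ± 0.16 at day 2 and by 1.24 ± 0.16 at day 4, and Id3 was higher by 3.62 ± 0.10 at day 2 and lower, at -2.35 ± 0.10, at day 4 (limma adjusted p at most 0.00141). Lats2, a Hippo kinase gene whose product phosphorylates Snail in human cells, was lower at day 4 (-1.89 ± 0.16, adjusted p = 1.8e-04). Without Dox, 15 of the 22 rose and 3 fell between the days, with Id3 at 5.60 ± 0.10.

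Signals and receptors that start such transitions (24 tested) counted 12 higher and 4 lower with Dox at day 4, with a median of 0.67 (2 to 4 lower with 1 array left out, the fewest without DoxOn_day4 replicate 1). Tdgf1, the gene of the Nodal co-receptor Cripto and also 1 of the pluripotency markers, was higher by 7.14 ± 0.18. Its mean was 12.11 with Dox and 4.96 without, against 11.05 and 11.46 at day 2. The growth factor gene Fgf5 was higher by 4.65 ± 0.11. The Notch ligand gene Jag1 was at -2.53 ± 0.14 and Tgfb3, a TGF-beta gene, at -1.96 ± 0.30 (limma adjusted p at most 0.00317 for all of these). At day 2, 4 were higher and 3 lower (1 or 2 lower with 1 array left out, the fewest without DoxOn_day2 replicate 2), with Bmp4 at 5.09 ± 0.10 and the PDGF receptor gene Pdgfra at -2.50 ± 0.12, above background on 1 of the 2 arrays with Dox.

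Fibronectin's receptors and the genes of matrix adhesion (18 tested) counted 6 higher and 2 lower with Dox at day 4 (1 lower without DoxOn_day4 replicate 1). Itgb5, a subunit of integrins, was higher by 1.58 ± 0.09 and Tln1, the gene of the integrin activator talin, by 0.83 ± 0.12, while Parva, an integrin-linked adaptor gene, was lower, at -1.51 ± 0.13 (limma adjusted p at most 0.00283). At day 2, 5 were higher and 1 lower (2 to 4 higher with 1 array left out, the fewest without DoxOn_day2 replicate 2, and 0 lower without DoxOn_day2 replicate 1), led by the heparan sulfate co-receptor gene Sdc4 (0.96 ± 0.10) and Itgb5 (0.96 ± 0.09). Itgb1, the beta subunit of the main fibronectin receptor, was the lower gene at day 2 (-0.69 ± 0.10, mean 7.45 with Dox and 8.14 without). Between the days with Dox, where Fn1 also rose, Itgb1 rose by 1.08 ± 0.10 (adjusted p = 6.6e-04).

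Fn1's neighbours in the matrix (11 tested) counted 3 higher and 3 lower with Dox at day 4 (1 lower without DoxOn_day4 replicate 1), with Efemp1, a fibulin gene, at 3.23 ± 0.10 and its relative Fbln1 at -1.16 ± 0.11 (limma adjusted p at most 4.0e-04). Vim's relatives among the intermediate filament and lamin genes (12 tested) counted 4 higher and 1 lower at day 4 (0 lower without DoxOn_day4 replicate 1). The neurofilament light chain gene Nefl was higher by 3.84 ± 0.15 and the neuronal filament gene Prph by 2.04 ± 0.11. At day 2 Prph was lower (-2.0 ± 0.11, adjusted p = 1.6e-04), 1 of 3 falls and 0 rises in that list (1 fall without DoxOn_day2 replicate 2).

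**Figure D5:**
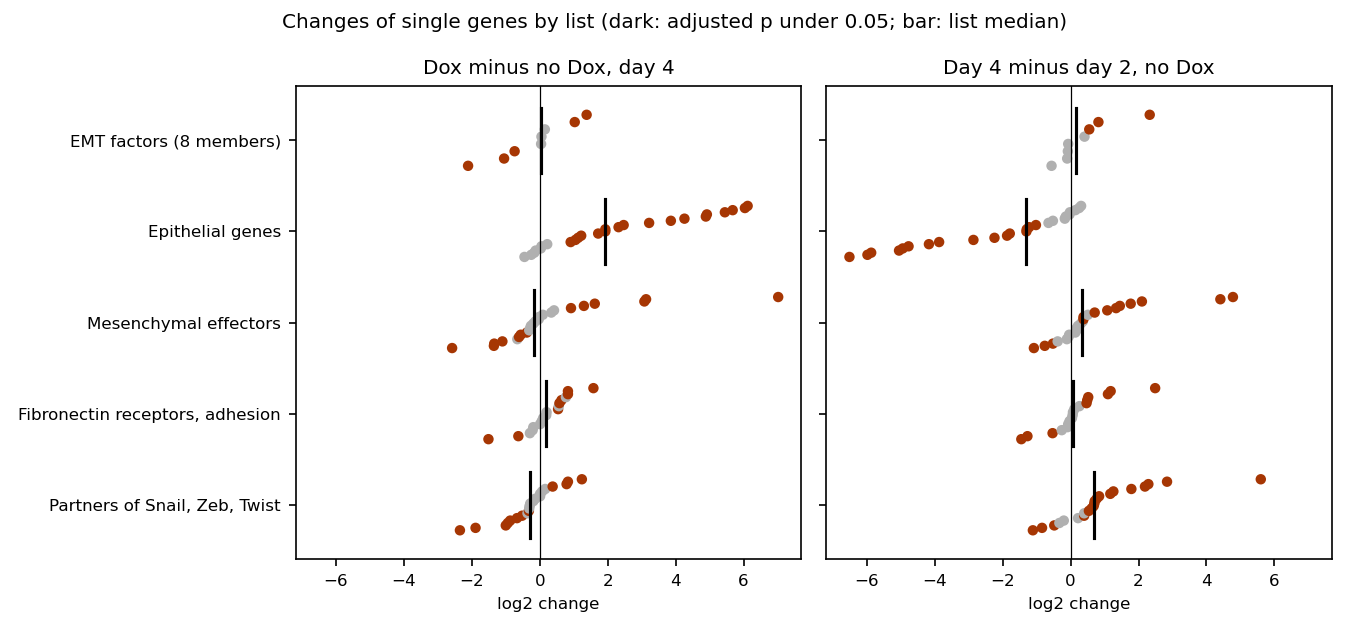
Log2 change (x axis) of each gene (points, dark where the limma adjusted p was under 0.05) in the 8 members and 4 gene lists, with the list median as a bar, for Dox minus no Dox at day 4 (left) and day 4 minus day 2 without Dox (right). The epithelial genes lie on the right in the left panel (median 1.93) and on the left in the other (median -1.30), whereas the members and the mesenchymal effectors lie on both sides of 0.

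Markers of the cell types that embryoid bodies can hold moved with these groups. The 9 tested neural progenitor markers summed to 403 to 444 intensity units with Dox at day 4, against 5174 to 5653 without, the group in which Zeb1, Zeb2 and Snai2 were highest. Of the 9, 0 were higher and 8 lower with Dox (median -2.72), with Msx3 at -6.34 ± 0.25 (above background on 1 of the 2 arrays with Dox) and Fabp7 at -5.29 ± 0.11. Above background on both arrays were 8 of 9 with Dox and 9 of 9 without. Fabp7 had a mean log2 intensity of 11.96 without Dox and 6.67 with Dox. It thus weighs heavily in the sum without Dox, which does not stand for the list. The 8 tested neural crest markers summed to 224 to 229 with Dox at day 4, against 277 to 303 without. Of these 2 were higher and 2 lower. The higher were Msx2, by 1.72 ± 0.20, and Ngfr, at least 2.42-fold. The call of Ngfr ended without DoxOn_day4 replicate 2 or either DoxOFF_day4 array. The lower were Pax7 at -4.92 ± 0.15, above background on 1 of the 2 arrays with Dox, and Tfap2b at -2.22 ± 0.24. Tfap2a and Ngfr were not above background without Dox. At day 2, where Zeb1 was higher with Dox, the neural crest markers summed to 161 to 164 with Dox, against 96.9 to 104 without. Of them 3 were higher and 0 lower. The neural progenitor markers summed there to 313 to 345 with Dox, against 508 to 569 without, with 0 higher and 4 lower. The part of either list in the Zeb and Snai2 results was not tested.

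The 15 tested markers of primitive streak and nascent mesoderm summed to 4072 to 4109 with Dox at day 4, where Snai1 and Fn1 were highest, against 367 to 374 without. Of the 15, 12 were higher and 0 lower (median 2.19), with T at 6.55 ± 0.11 and Mesp1 not above background without Dox. The 9 tested pluripotency markers summed to 12916 to 13087 with Dox at day 4, against 177 to 192 without, and 8 were higher and 0 lower. At day 2 these markers summed to 31201 to 32412 with Dox and to 28695 to 30748 without. Between the days 1 rose and 5 fell with Dox, and 0 rose and 8 fell without. The rise, that of Tdgf1, ended as a call without DoxOn_day4 replicate 2. Visceral and parietal endoderm markers (14 tested), which accompany Fn1 in the mouse yolk sac, summed to 205 to 215 with Dox at day 4, against 213 to 242 without. Of the 14, 3 were higher and 4 lower (median -0.05). Foxa2 at 3.2 ± 0.23 and Gata6 at 1.40 ± 0.21 were among the higher. Among the lower were Col4a2 at -1.78 ± 0.12 and Dab2, which was at least 3.82-fold lower. Ttr, Apoa1 and Dab2 were not above background with Dox at day 4, and Apoa1 was not above it without Dox either. At day 2 they summed to 151 to 159 with Dox, against 249 to 268 without, with 1 higher and 8 lower (4 to 8 lower without 1 array, the fewest without DoxOFF_day2 replicate 2), while Zeb1 was higher. The 9 fibroblast markers, of which 1 was higher and 1 lower at day 4 (1 to 3 lower with 1 array left out), summed to 196 to 210.2 with Dox, against 139.8 to 179 without. Of the fibroblast markers the higher was Thy1 (3.62 ± 0.16, mean log2 intensity 6.13 with Dox and 2.52 without). The lower was Dcn (-2.32 ± 0.14), and the median over the 9 was -0.26, so their sum does not stand for the list. The part of these lists in the results for Snai1, Fn1 and Zeb1 was not tested.

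For each member with a call between 2 groups, the 3 named genes with the highest Pearson correlation of log2 intensity over the 8 arrays were taken as the most alike in pattern, among genes whose spread over arrays was at least 1/2 of the member's. The 8 points are 4 groups of 2 arrays and share the normalization, so these values describe likeness only. For Zeb1 they were the solute carrier gene Slc45a3 (r = 0.987), the adaptor complex gene Ap3m2 (0.985) and Nav1, a neuron navigator gene (0.983). For Snai2 they were Zbtb24 (0.987), Dynll1 (0.961) and Wdr70 (0.959), and for Zeb2 Ccdc181 (0.980), the glycolytic gene Gapdh (0.978) and the ephrin receptor gene Epha3 (0.965). Snai1 was most like Dnajb11 (0.971), Cd59a (0.970) and Zfp677 (0.967), Fn1 most like Triobp (0.967), Cdk18 (0.956) and Mtfp1 (0.956), and Vim most like Zfp612 (0.995), Hs6st2 (0.991) and Chchd7 (0.989). No member was among the 3 nearest genes of another. With 3414 to 12039 candidates per member, that absence says nothing about likeness among the members. Over the same 8 arrays the highest correlations between members were 0.89 (Snai2 and Zeb1) and 0.80 (Snai1 and Fn1). The lowest was -0.88 (Snai2 and Fn1).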

How the data were processed

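Total RNA of 8 embryoid body samples was measured on single-colour Cy5 arrays of TORAY, 2 per group, grouped and numbered by their titles. Per the file headers, the scanner files hold a median spot intensity at 635 nm and a local background intensity, both joined over 3 gains and uncorrected. The authors' deposited series table holds processed intensity values of unstated making. On each array it was a straight line of the scanner values (r = 1.00) scaled to a median of 25.0, and its log2 was used as an alternative. Its log2 scale, like that of all levels given, was taken here and not by the authors.

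The local background column followed the spot (correlation of logs 0.984 to 0.998), so the mean of the 2736 blank spots of each array (SD 0.871 to 1.37) was subtracted instead. Values were quantile normalized, set to a floor of 2.06 intensity units (2 blank SDs, median over arrays) and log2 transformed. Probes above the blank mean plus 2 SD on at least 2 arrays were tested (21661), and 1812 were left out. Differences were tested with limma (version 3.58.1, R 4.3.3): lmFit on the 4 group means of 8 arrays, then 5 contrasts and eBayes (residual df 4, prior df 2.70), 2-sided, with Benjamini-Hochberg adjustment over all probes tested and a threshold of 0.05. Errors of changes are standard errors of this fit. Where both arrays of a group lacked signal above background, the fold is a lower bound.

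Symbols came from the platform's annotation, updated through synonyms of a RefSeq table (GRCm38.p6). Of the gene probes, 16631 have 1 symbol and 6842 none, 3947 symbols were updated and 62 were kept as given. A gene with several probes was represented by the brightest. Named genes are the members, Cdh1, Cdh2, Tbx6 and T, per list and comparison the 2 largest rises and falls past the threshold, and the 3 genes most alike in pattern. From these the text gives a selection. The members and lists were chosen with earlier results of these data known. The fit was tested on simulated data. Alternatives covered the background, the normalization, the filter, the floor, the deposited values, the replicate block, fits of 2 groups alone and each array left out. Labels were parsed by jsonlite 2.0.0 and plots made by matplotlib 3.10.9.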

Additional observations from a re-analysis of the deposited data

Results flagged for a closer look

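For 4 members the Dox response differed between the days by the interaction term of the limma fit (n = 2 arrays per group). The response at day 4 minus that at day 2, on the log2 scale, was -3.08 for Zeb1 (adjusted p = 2.0e-04), where the sign turned: higher with Dox at day 2 and lower at day 4. It was -1.39 for Snai2 (adjusted p = 0.00853), 1.47 for Fn1 (adjusted p = 0.0197) and 0.86 for Snai1 (adjusted p = 0.0277), and for these 3 the day-2 response itself did not pass. Each pair of DoxOn_day4 arrays lay on 1 side of its DoxOFF_day4 pair, as for 62.9% of all probes. The calls of Fn1 and Snai1 ended when single arrays were left out, as given above.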

How the results depend on the processing

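Of 40 member results, 17 were called. All 17 calls were kept with 75th percentile scaling, cyclic loess, the filters on all 8 arrays and on negative controls, and 0.5 times the floor. Normexp on the local background ended or turned all of them. Its counts of probes called were 1 (Dox at day 2), 0 (Dox at day 4), 0 (difference), 3 (over time with Dox) and 0 (without), against 2557, 6483, 4794, 4108 and 8263. At an unadjusted p under 0.05 it gave 477, 855, 523, 783 and 605 probes, and 0 members in each. The cause of its low counts was not tested.

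Signs that turned under that setting were, at day 2, Snai1 0.00, Zeb2 0.00, Twist1 -0.13 and Twist2 0.10, at day 4, Zeb2 0.01, Twist1 0.00, Twist2 -0.02 and Vim -1.77, and for the difference, Zeb2 0.00, Twist2 -0.12 and Vim -1.77. Over time they were Zeb2 -0.01, Twist2 -0.14, Vim -0.97 and Fn1 -0.37 with Dox, and Snai1 0.00, Zeb2 -0.01 and Twist1 0.15 without. Elsewhere only uncalled changes turned. Zeb2 did so over time with Dox with the authors' deposited values (-0.04), 75th percentile scaling (-0.05) and 4 times the floor (0.00), and at day 2 with 4 times the floor (0.00). Leaving out arrays in turn gave both signs for Twist1 (-0.06 to 0.11) and Fn1 (-0.33 to 0.16) at day 2, Vim (-0.07 to 0.15) at day 4, Zeb2 (-0.14 to 0.15) and Twist1 (-0.05 to 0.12) over time with Dox, and Snai1 (-0.22 to 0.06) over time without.

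For Dox at day 2, 2 members were called with no background correction and with normexp against the blank mean (Vim added), beside 3292 and 3314 probes, and 1650 probes were called with the day-2 arrays alone. With 4 times the floor 2 members were called for the difference and 2 over time with Dox, beside 4730 and 3785 probes. Zeb1 over time with Dox ended at that floor (0.0521) and with no correction (0.0533), and Fn1 at that floor (0.0946) and with no filter (0.0778). With each array left out in turn the probes called numbered 1188 to 2284, 4593 to 6131, 3468 to 3907, 2417 to 3849 and 6441 to 8035, in the same order. The members called numbered 0 to 1, 4 to 5, 2 to 3, 1 to 4 and 1 to 4.

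The replicate numbers did not pair the arrays: same-numbered deviations from the group means correlated at -0.20 at day 2, 0.05 at day 4 and -0.27 to 0.23 over all pairs of groups. With the replicate block, 2009, 5915, 4154, 3545 and 7754 probes were called, all 17 member calls were kept, and Zeb2 over time without Dox was added (adjusted p = 0.0257). A crossed pairing of the day-2 arrays, chosen after seeing the data, gave 2789 probes at day 2. The slide or scan as a block was not run because the headers used here give neither, and no member has another probe. Low signal limits Zeb2, which lay nearest the blank level, and the Snai1 and Snai2 spots were also dim.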

Other observations

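Endothelial and blood markers, the other mesoderm derivatives listed, counted 2 higher and 0 lower of 7 tested with Dox at day 4 (2 to 4 higher and 0 to 1 lower with 1 array left out). Of all probes, 29.9% were called in that comparison. Etv2, the factor gene at the head of the endothelial and blood lineages, was higher by 2.79 ± 0.19 (limma adjusted p = 6.7e-05, mean log2 intensity 7.35 with Dox and 4.56 without). Pecam1, an endothelial adhesion gene, was at least 3.32-fold higher, since it was not above background without Dox. Between the days with Dox, 1 of the 7 rose and 3 fell, and without Dox 0 rose and 4 fell. With Dox, Etv2 rose by 0.79 ± 0.19 (adjusted p = 0.0276), a call that ended without any 1 of the 4 arrays with Dox (up to 0.118), and Pecam1 and the angiopoietin receptor gene Tek were at -3.50 ± 0.13 and -2.29 ± 0.21 (adjusted p = 2.4e-05 and 5.3e-04). Both were also lower at day 4 without Dox, where neither was above background.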
